A study of Mus musculus with 15 samples.

Results

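Mycl and 5 genes near it on mouse chromosome 4, Trit1, Mfsd2a, Cap1, Ppt1 and Rlf, were followed across 13 lung tumours and 2 normal lungs. The 6 genes were taken by symbol from the array's annotation and are 6 of the 18193 genes measured, read by 15 of 45037 probe sets (3 for Mycl, 1 each for Trit1 and Mfsd2a, 2 for Cap1, 5 for Ppt1 and 3 for Rlf). The tumours model small cell lung cancer (SCLC), a neuroendocrine lung cancer, and were set on Affymetrix arrays to ask how far the mouse disease resembles the human one. Of these, 10, the Rb/p53 tumours, had the genotype RbΔ/Δ; p53Δ/Δ and came from mice aged for 8 to 12 months after Cre was given. The other 3, the Rb/p53/p130 tumours, had the genotype RbΔ/Δ; p53Δ/Δ; p130Δ/Δ and came from mice aged for 6 months, so genotype and age cannot be told apart. In both, an adenovirus carrying Cre recombinase was instilled into the nose, so the alleles are deleted in whichever airway cells the virus enters. Normal lung is represented by 2 samples from wild-type adult mice free of tumours. Tumours are numbered as in the sample labels, 1 to 10 for Rb/p53 and 11 to 13 for Rb/p53/p130.

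MYC family proteins are transcription factors that pair with Max and bind E-box sequences, and they drive growth and division. Mycl encodes the member called L-Myc, which was identified in human SCLC, where its chromosome region is amplified in a subset of tumours. DNA copy number was not analysed here. Among the neighbours, Trit1 encodes an enzyme that adds an isopentenyl group to tRNA, Mfsd2a a transporter of lysophosphatidylcholine, Cap1 a protein that binds actin and speeds its turnover, and Ppt1 a lysosomal enzyme that removes palmitate from proteins and whose loss causes a neuronal ceroid lipofuscinosis. Rlf encodes a zinc finger protein named for its fusion with MYCL in human SCLC. Counted in measured genes along the chromosome, Trit1 is the next gene on one side of Mycl (written here as the right), and Mfsd2a, Cap1 and Ppt1 are genes 1, 2 and 3 on the other (the left). Rlf is gene 6 on the left.

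The promoters of 3 of these genes are shown: that of Mycl, that of Trit1, the gene beside it, and that of Rlf, the farthest of the 5 neighbours in gene order. Each runs from 250 bases before to 50 after the start of the gene, in RefSeq's GRCm38.p6, 5′ to 3′ on the gene's strand. They lie at chr4:122995681-122995980 (Mycl, plus strand), chr4:123016343-123016642 (Trit1, plus strand) and chr4:121215035-121215334 (Rlf, minus strand). The window of Ppt1, not shown, lies at chr4:122835977-122836276. Rlf is thus much farther from Mycl than Ppt1 is, which the count in genes does not show. Capitals mark matches to TATAAA, searched on the strand shown only, to CCAAT or its reverse complement ATTGG, and to the E-box CACGTG, which reads the same on both strands. No match overlaps another.
Mycl: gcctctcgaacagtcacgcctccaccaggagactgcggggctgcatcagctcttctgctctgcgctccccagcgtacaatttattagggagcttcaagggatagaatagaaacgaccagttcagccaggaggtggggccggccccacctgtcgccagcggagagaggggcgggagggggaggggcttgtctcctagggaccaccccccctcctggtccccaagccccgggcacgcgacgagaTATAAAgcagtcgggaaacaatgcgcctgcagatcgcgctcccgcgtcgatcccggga
Trit1: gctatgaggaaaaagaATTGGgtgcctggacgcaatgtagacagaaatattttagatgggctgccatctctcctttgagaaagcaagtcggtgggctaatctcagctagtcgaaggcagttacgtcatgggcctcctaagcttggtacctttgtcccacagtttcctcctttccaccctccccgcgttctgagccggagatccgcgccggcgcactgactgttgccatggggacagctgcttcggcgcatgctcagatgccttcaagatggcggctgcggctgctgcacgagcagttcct
Rlf: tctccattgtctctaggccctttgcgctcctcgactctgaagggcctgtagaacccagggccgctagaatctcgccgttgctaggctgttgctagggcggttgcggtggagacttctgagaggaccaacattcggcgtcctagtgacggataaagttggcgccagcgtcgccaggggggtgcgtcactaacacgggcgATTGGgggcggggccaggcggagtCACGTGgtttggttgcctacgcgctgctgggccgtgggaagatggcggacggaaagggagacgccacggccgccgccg
The window of Mycl held 1 TATAAA and no CACGTG, that of Trit1 held 1 ATTGG, and that of Rlf held both ATTGG and CACGTG. Over all 6 genes CACGTG was found in 1 window, TATAAA in 1 and CCAAT or ATTGG in 4. Of 32851 mouse promoter windows of the same length, 7.15% held CACGTG, 8.32% TATAAA and 37.4% CCAAT or ATTGG. The GC content was 64% for Mycl, 55.7% for Trit1 and 64.3% for Rlf, against a median of 52.7% over all windows.

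All values are log2 expression levels from RMA, a method that corrects background, equalises arrays and summarises the probes of a set, and a gene is read from its brightest probe set unless another is named. Array medians lay between 6.58 and 6.68, no 2 arrays were identical, and precision is limited by how few arrays each group has. Nothing in the labels states that each array holds a different mouse, and a p-value here therefore reflects the spread between samples, which may be partly technical. Rb1 read 11.0 to 12.2 in Rb/p53 tumours, 11.7 to 11.9 in Rb/p53/p130 tumours and 10.1 to 10.3 in normal lung, and Rbl2, which encodes p130, read 7.68 to 9.09, 8.39 to 8.82 and 9.56 to 9.58. Since it is unknown here whether these probe sets read the deleted parts of the genes, they do not check the genotype labels. Neuroendocrine markers (7 of 8 measured) averaged 10.7 to 11.6 in Rb/p53 tumours, 10.8 to 11.3 in Rb/p53/p130 tumours and 5.19 to 5.45 in normal lung, with all 7 called higher in each tumour group. Endothelial markers (8 of 8 measured) averaged 7.27 to 9.31, 8.14 to 8.27 and 11.5 to 11.9, with 7 called lower in each. The array's Gapdh control probe sets differed between the 3′ and 5′ ends by -0.07 to 0.36 in tumours and by 0.72 and 0.88 in normal lung. In such whole pieces of tissue, fewer cells of a type and less RNA per cell cannot be told apart.

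Mycl was higher in tumours than in normal lung. It read from 9.39 (tumour 6) to 13.4 (tumour 9) in Rb/p53 tumours, with a median of 11.1, and 12.46, 10.86 and 11.82 in Rb/p53/p130 tumours 11, 12 and 13, against 8.76 and 8.55 in normal lung. Every tumour lay above both lungs, with a wide spread among the tumours themselves. Rb/p53 tumours averaged 11.36 ± 1.32 (SD, n = 10), Rb/p53/p130 tumours 11.71 ± 0.80 (n = 3) and normal lungs 8.66 ± 0.15 (n = 2). Rb/p53 tumours exceeded normal lung by 2.70 ± 0.84 on the log2 scale (SE), or 6.51-fold (limma adjusted p = 0.0225), and Rb/p53/p130 tumours by 3.06 ± 0.99, or 8.32-fold (limma adjusted p = 0.0343). Both calls ended when lung 1 or lung 2 was left out (adjusted p = 0.119 or 0.146 for Rb/p53 tumours, and 0.130 or 0.146 for Rb/p53/p130 tumours), with the mean of the probe sets (2.15 and 2.73, adjusted p = 0.0585 and 0.0507) and with the Gapdh difference as a covariate (4.37 and 4.81, adjusted p = 0.267 and 0.279). The call for Rb/p53/p130 tumours also ended without tumour 11 (difference 2.69, adjusted p = 0.110) or tumour 13 (3.00, adjusted p = 0.0759).

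The other probe sets of Mycl ran the same way but dimmer. The second brightest exceeded normal lung by 1.95 ± 0.98 in Rb/p53 tumours (limma adjusted p = 0.150) and by 2.77 ± 1.15 in Rb/p53/p130 tumours (adjusted p = 0.0970). On that probe set tumour 6, at 5.46, lay below both lungs (5.61 and 5.48). For the dimmest the differences were 1.79 ± 0.77 (adjusted p = 0.0915) and 2.35 ± 0.90 (adjusted p = 0.0720). Neither passed the threshold of 0.05, and the call of Mycl rests on its brightest probe set.

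Rlf was the other member called higher in Rb/p53 tumours, by a much smaller step. It read from 9.42 (tumour 6) to 10.6 (tumour 7) with a median of 9.81 in Rb/p53 tumours and 9.95, 9.76 and 9.74 in Rb/p53/p130 tumours, against 9.23 in each normal lung. On this brightest probe set, tumours and lungs did not overlap. The difference from normal lung was 0.61 ± 0.22 in Rb/p53 tumours (limma adjusted p = 0.0434) and 0.58 ± 0.25 in Rb/p53/p130 tumours (adjusted p = 0.113). With 1 array left out the call in Rb/p53 tumours remained only without tumour 3, 5, 6 or 7, and over the 15 such fits adjusted p ran from 0.0158 to 0.191. Centring arrays on their medians, which moves the difference to 0.55, ended it as well (adjusted p = 0.0748). The other probe sets of Rlf exceeded normal lung in Rb/p53 tumours by 0.94 ± 0.23 (the second brightest, limma adjusted p = 0.00573) and 1.20 ± 0.34 (the dimmest, adjusted p = 0.0131). In Rb/p53/p130 tumours the same probe sets differed from normal lung by 0.77 ± 0.27 (limma adjusted p = 0.0515) and -0.16 ± 0.40 (adjusted p = 0.833). On the dimmest, both tumour groups overlapped with normal lung.

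Trit1, Mfsd2a, Cap1 and Ppt1 did not pass the test against normal lung in either tumour group. Their Rb/p53 means differed from normal lung by 1.39 ± 0.98, -0.19 ± 0.97, 0.52 ± 0.87 and 0.01 ± 0.73 (SE), with limma adjusted p of 0.320, 0.909, 0.704 and 0.992. Those of the Rb/p53/p130 tumours differed by 1.12 ± 1.16, -0.52 ± 1.15, 0.09 ± 1.03 and -0.38 ± 0.86, with adjusted p of 0.549, 0.805, 0.968 and 0.813. In all, 2 of the 6 genes were called higher in Rb/p53 tumours and 0 lower, where 18.3% of all genes were called higher and 20.5% lower. In Rb/p53/p130 tumours 1 of 6 was called higher and 0 lower, against 15.3% and 15.6% of all genes. The median difference of the 6 genes from normal lung was 0.56 in Rb/p53 tumours, and 0.34 with p130 deleted too, against -0.02 over all genes in each. With so few members nothing is read from the gap between these shares, and both tumour groups are set against the same 2 lungs.

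Between the tumour genotypes 0 of the 6 genes were called, where 0.022% of all genes were called higher and 0.0495% lower in Rb/p53/p130 tumours. Mycl differed by 0.35 ± 0.71 (limma adjusted p = 0.924), and the median over the 6 genes was -0.30. By brightest probe set, the lowest unadjusted limma p of the 6 genes was 0.541, for Ppt1. Of all probe sets of the 6 genes, the dimmest of Rlf came closest, with a difference of -1.35 ± 0.29 (limma adjusted p = 0.0740). It read 4.60, 4.97 and 4.59 in Rb/p53/p130 tumours and 5.08 to 6.71 in Rb/p53 tumours, with no overlap, near the level of dim probe sets (the lower quartile of an array is at most 5.05).

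**Figure D1:**
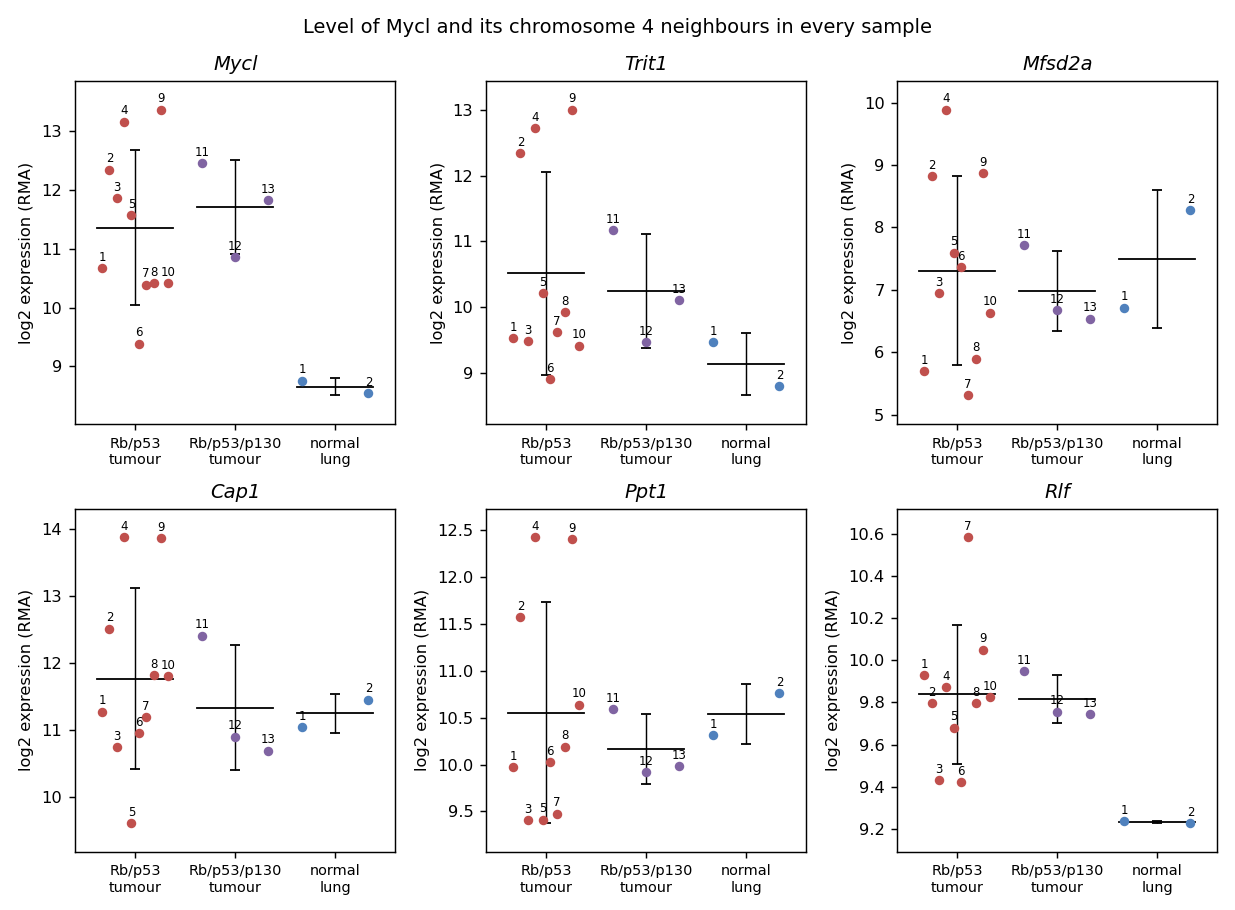
Log2 expression (RMA) of the 6 genes in every sample, with the 10 Rb/p53 tumours left, the 3 Rb/p53/p130 tumours in the middle and the 2 normal lungs right in each panel. Points carry the label number of the sample, lines are group means and bars SD; tumours 2, 4 and 9 are the highest Rb/p53 tumours for Mycl, Trit1, Mfsd2a, Cap1 and Ppt1, and not for Rlf.

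The means of the neighbours hide a spread that lay in a few tumours. Trit1 read 12.3, 12.7 and 13.0 in tumours 2, 4 and 9, and from 8.90 to 10.2 in the other 7 Rb/p53 tumours. It read 11.17, 9.46 and 10.11 in Rb/p53/p130 tumours, against 9.46 and 8.79 in normal lung. No Rb/p53 tumour fell between 10.2 and 12.3, a gap of 51.9% of the range, and the 7 lower tumours overlapped with normal lung. Ppt1 read 11.58, 12.43 and 12.41 in tumours 2, 4 and 9, from 9.41 to 10.6 in the other 7, and 10.59, 9.92 and 9.98 in Rb/p53/p130 tumours, against 10.32 and 10.76 in normal lung. Those same tumours stood highest for Cap1, with 12.51, 13.87 and 13.87, while the other 7 reached 11.8 at most and Rb/p53/p130 tumours read 12.41, 10.90 and 10.69, against 11.04 and 11.45 in normal lung. Cap1 was lowest in tumour 5, at 9.61, although Mycl read 11.57 there.

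Mfsd2a, the dimmest of the 6, read 8.82, 9.89 and 8.87 in tumours 2, 4 and 9 and from 5.31 to 7.60 in the other 7 Rb/p53 tumours. Its levels in Rb/p53/p130 tumours were 7.72, 6.68 and 6.54, against 6.71 and 8.28 in normal lung, so normal lung overlapped with both. Mycl itself was highest in the same Rb/p53 tumours, with 12.34, 13.16 and 13.36 in tumours 2, 4 and 9. Tumour 3 followed at 11.86 and tumour 5 at 11.57, with Trit1 at 9.48 and 10.21 and Ppt1 at 9.41 in each. In tumours 3 and 5 Mycl lay above the median of the Rb/p53 tumours by 0.74 and 0.45. Trit1 deviated from its own median by -0.29 and 0.44 there, and Ppt1 by -0.70 in each.

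The same 3 tumours stood highest on every probe set of these genes other than those of Rlf. Tumours 2, 4 and 9 were the 3 highest Rb/p53 tumours on 12 of the 12 probe sets of Mycl, Trit1, Mfsd2a, Cap1 and Ppt1, and on 0 of the 3 of Rlf. The 3 tumours were set by the brightest probe set of Mycl, so its own match was fixed, and probe sets of 1 gene are repeat readings. Read by brightest probe set, 8 of the 24 genes within 12 measured genes of Mycl had those 3 highest. Trit1, Mfsd2a, Cap1 and Ppt1 were among them. Among the 18192 genes other than Mycl, 0.869% had those 3 highest. On the third brightest probe set of Ppt1 the 3 tumours read 9.01, 9.74 and 9.84 where the other 7 reached 7.56 at most, and on the dimmer one of Cap1 they read 10.41, 12.59 and 12.70, with tumour 8 next at 10.39.

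Whether the neighbours varied with Mycl was measured by correlation over the 10 Rb/p53 tumours, with permutation p adjusted over the 5 relations. Mfsd2a was called, with Pearson r = 0.78 (permutation p = 0.00907, adjusted p = 0.0453) and Spearman rho = 0.73 (permutation p = 0.0206, adjusted p = 0.103). Ppt1 gave r = 0.72 (permutation p = 0.0227, adjusted p = 0.0567) and rho = 0.44 (p = 0.205), and Cap1 gave r = 0.64 (permutation p = 0.0491, adjusted p = 0.0819) and rho = 0.53 (p = 0.125). Rlf gave r = 0.08 (permutation p = 0.840) and rho = 0.21 (p = 0.562). For Trit1 the gap named above separates the tumours, so r was taken within the 7 lower ones, where it was 0.62 (exact permutation p = 0.131, adjusted p = 0.163) with rho = 0.43 (p = 0.354). This leaves out tumours 2, 4 and 9, which the other relations keep, so its r cannot be set beside theirs. Over all 10 tumours Trit1 gave r = 0.90 (permutation p = 0.00018, adjusted p = 0.0009) and rho = 0.81 (permutation adjusted p = 0.0377). That reading was chosen after the data were seen.

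The calls moved with the probe sets read. Over the other pairs of probe sets of Mycl and a neighbour, r ran from 0.66 to 0.88 for Ppt1, which passed in 12 of 14, and from 0.60 to 0.77 for Cap1, which passed in 4 of 5. Mfsd2a passed in 1 of 2 (r = 0.75 and 0.81) and Trit1, within the 7 tumours, in 0 of 2 (0.68 and 0.72). For Rlf r ran from 0.11 to 0.58 and 0 of 8 passed, the highest with its second brightest probe set (permutation p = 0.0780, adjusted p = 0.0975).

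The r with Mycl was lower without the tumours at the top. Leaving those tumours out also narrows the range of Mycl, which by itself can lower r. Without tumours 9 and 4, which lie farthest from the median of Mycl, r was 0.55 for Mfsd2a (exact permutation p = 0.160), 0.23 for Ppt1, 0.03 for Cap1 and -0.12 for Rlf. Within the 7 tumours other than 2, 4 and 9 it was 0.20 for Mfsd2a, -0.58 for Ppt1, -0.53 for Cap1 and -0.15 for Rlf, none of which passed (exact permutation p from 0.166 to 0.757). The call of Mfsd2a also ended without tumour 1, 2, 4, 7, 8, 9 or 10, and remained without 3, 5 or 6. Its r in these fits, each with 1 tumour fewer, ran from 0.70 (without tumour 4) to 0.93 (without tumour 6). With the 3 Rb/p53/p130 tumours added and each genotype centred, 4 of the 5 relations passed, all but Rlf (for Trit1 over 10 tumours, those of its lower cluster and the 3 added).

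**Figure D2:**
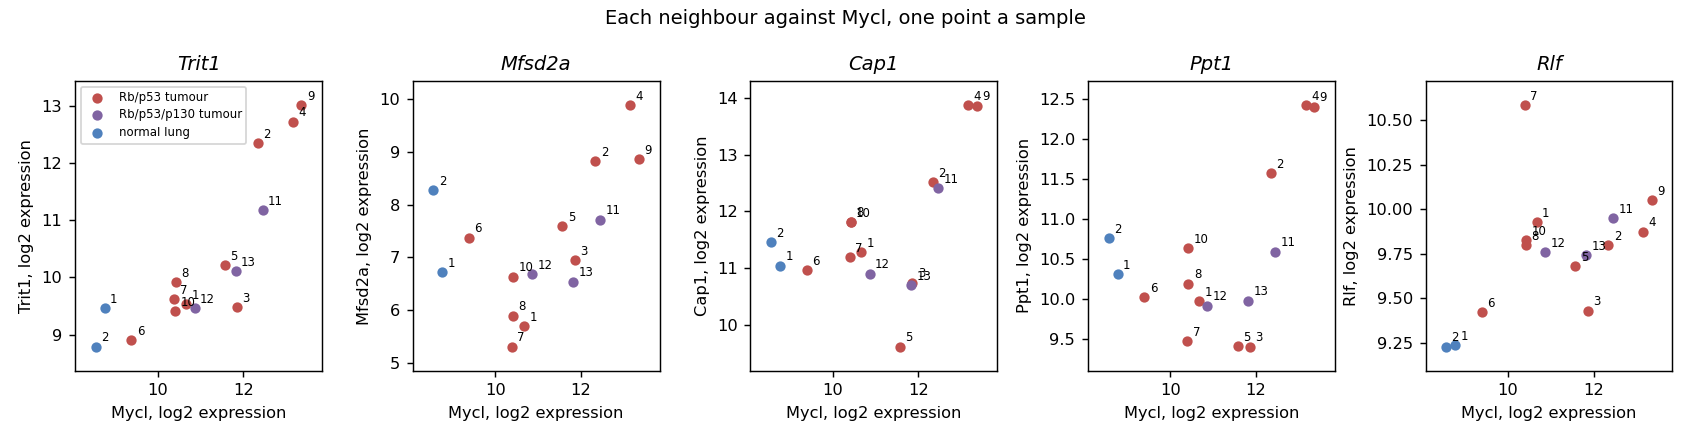
Log2 expression of each neighbour (vertical) against that of Mycl (horizontal), 1 point a sample with its label number, coloured by tumour genotype or as normal lung. Tumours 2, 4 and 9 stand at the upper right for every neighbour but Rlf, and the other Rb/p53 tumours show no upward trend for Cap1 and Ppt1 (r = -0.53 and -0.58 within those 7).

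Cell type markers of tumours 2, 4 and 9 took neither end of the 10 Rb/p53 tumours in 8 of 12 lists, and their part in the result was not tested. Counted from the lowest of the 10, they ranked 2, 3 and 6 in mean neuroendocrine markers, 5, 7 and 9 in dividing-cell markers, 6, 3 and 5 in alveolar type 2 markers, 6, 3 and 4 in endothelial markers and 8, 4 and 3 in macrophage markers. In alveolar type 1, club and T cell markers their ranks lay between 2 and 7. Tumour 2 had the highest mean of hepatocyte markers (8.60, where normal lung read 5.40 and 5.51). Tumour 4 had the highest of fibroblast markers (9.87, normal lung 10.6 and 10.8) and of B cell markers (6.89, normal lung 7.78 and 8.02), and tumour 9 the lowest of ciliated cell markers (6.14, normal lung 9.17 and 9.82). Their Gapdh 3′ to 5′ differences were 0.14, 0.06 and -0.0021.

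The neighbourhood was then read gene by gene, as the deviation of each tumour from the median of the Rb/p53 tumours over the 12 measured genes on each side of Mycl. In tumour 4, 11 of these 24 genes lay at least 1 log2 unit above the median, where 1.02% of all genes did. Going from left to right they were 9530002B09Rik (1.9), Ppt1 (2.3), Cap1 (2.3), Mfsd2a (2.7), Trit1 (3.0), Bmp8b (1.7), Ppie (2.9), Hpcal4 (2.0), Pabpc4 (3.3), Macf1 (2.0) and Akirin1 (1.5), with Mycl itself at 2.0. Heyl, Bmp8a, Oxct2a, Ndufs5 and Rhbdl2, which also lie on the right, deviated by 0.5, 0.4, 0.3, 0.9 and 0.5. Left of 9530002B09Rik, none of the 24 was raised: Rlf deviated by 0.1 and Zmpste24, the protease that matures lamin A, by -0.1. Farther left, Edn2, which encodes an endothelin and lies 18 genes from Mycl, deviated by 1.1 in tumour 4, 1.8 in tumour 2 and 1.7 in tumour 9, with levels of 7.19, 7.93 and 7.75; it was chosen after its values were seen.

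Tumour 9 shared the left edge and differed on the right. There 7 of the 24 genes lay at least 1 unit above the median, against 1.06% of all genes. They ran without a gap from 9530002B09Rik (2.6) and Ppt1 (2.3) through Trit1 (3.2) and Bmp8b (2.5) to Ppie (3.2), a cyclophilin of the spliceosome. From Hpcal4 on, the deviations were -0.2 or lower except for Pabpc4 (0.0) and Oxct2a (0.9). Pabpc4, which encodes a cytoplasmic poly(A)-binding protein, read 13.88 in tumour 4 and 10.65 in tumour 9.

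Tumour 2 held 7 raised genes of the 24, against 1.76% of all genes, and they were Ppt1 (1.5), Mfsd2a (1.7), Trit1 (2.6), Ppie (2.4), Pabpc4 (2.0), Akirin1 (1.4) and Rhbdl2 (1.4). Cap1 (0.97) and Bmp8b (0.99) fell just short, and 9530002B09Rik stayed at 0.1. Mycl deviated by 1.2 in this tumour, less than Trit1 and Ppie. Beyond the 12 genes, Mycbp, which encodes a Myc-binding protein, deviated by 2.1 in tumour 4 and 1.1 in tumour 2, and Rragc, a Rag GTPase of nutrient sensing, by 1.6 and 1.1. Both were chosen after their values were seen. Their deviations in tumour 9 were -0.4 and -0.6, and the next gene, Gm2164, lay within 0.3 of the median in all 3 tumours, at a level of dim probe sets (4.46 to 4.74).

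Tumour 8 had raised genes on the right alone, with Mycl below the median at -0.70. They were Hpcal4 (4.0), a neuronal calcium sensor, Heyl (2.7), a transcription factor of the Notch pathway, Pabpc4 (2.4) and Macf1 (1.7), which links actin and microtubules, or 4 of the 24 against 2.76% of all genes. None of the 5 neighbours was raised there, and Trit1 and Ppie deviated by 0.2 and 0.1. In Rb/p53/p130 tumour 11, the highest of its group for Mycl (deviation 1.3), Trit1 (1.4) and Pabpc4 (1.7) were raised, or 2 of the 24 against 1.09% of all genes. In the other 8 tumours 0 of the 24 genes were, tumour 3 and tumour 13 included, where Mycl deviated by 0.74 and 0.70. Over all genes the share raised was 2.44%, 2.78%, 1.76%, 1.99%, 2.67% and 3.14% in Rb/p53 tumours 1, 3, 5, 6, 7 and 10, and 1.85% and 2.55% in Rb/p53/p130 tumours 12 and 13.

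**Figure D3:**
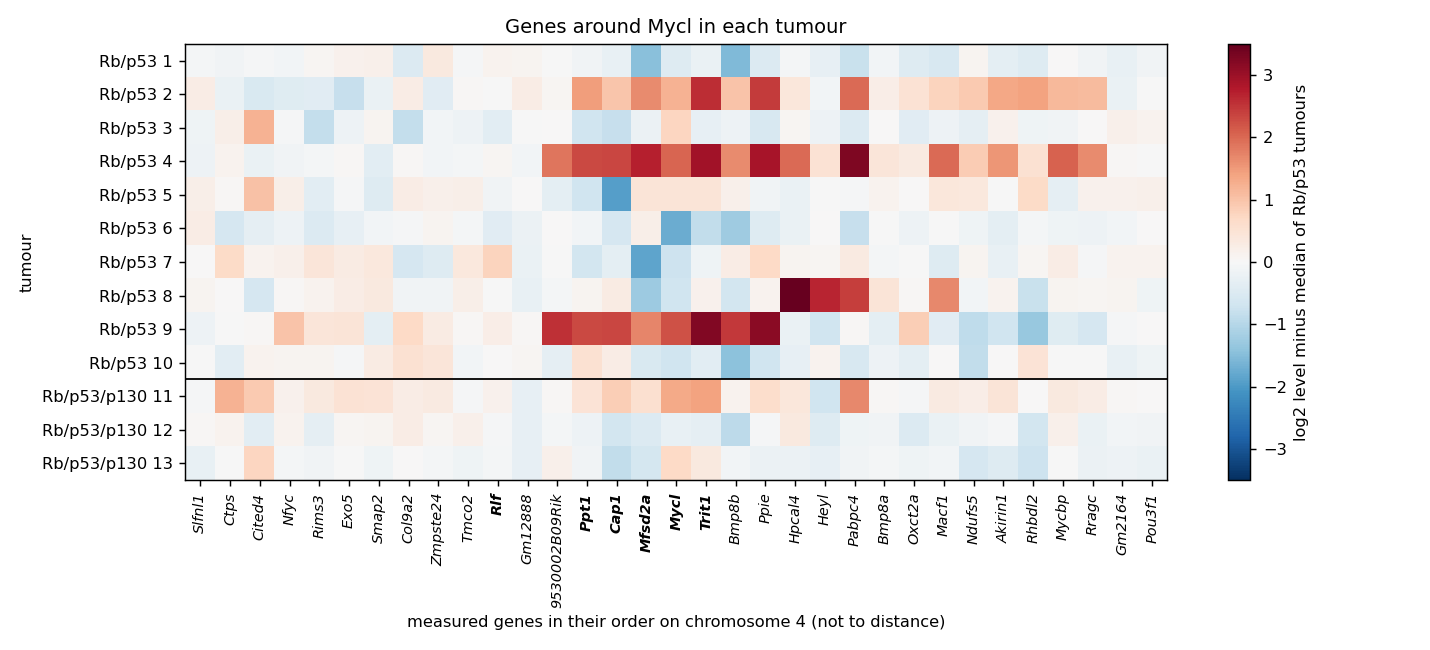
Log2 level of each gene minus its median over the Rb/p53 tumours (colour) for 16 measured genes on each side of Mycl in chromosome order (left to right, not to distance) in each of 13 tumours (rows), with Rb/p53 tumours above the line, Rb/p53/p130 tumours below it and the 6 genes in bold. Raised genes appear in tumours 2, 4 and 9 around Mycl and Trit1. In tumour 8 they are Hpcal4, Heyl, Pabpc4 and Macf1, without Mycl and without Bmp8a and Oxct2a, which lie between Pabpc4 and Macf1.

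Set beside all other genes, likeness to Mycl clustered next to it. By Pearson r over the 10 Rb/p53 tumours, a description here, Trit1 ranked 5 of 18192 genes (r = 0.90, pooled over its separate clusters of tumours), Mfsd2a 53, Ppt1 134, Cap1 316 and Rlf 6742. Other genes of the neighbourhood were as near: Bmp8b, a bone morphogenetic protein, ranked 8 (r = 0.88), Ppie 39 (0.81), 9530002B09Rik 84 (0.75) and Oxct2a 167 (0.70). An r of at least 0.7 was reached by 7 of the 24 flanking genes (29.2%), against 1.66% of the genes on chromosome 4 and 0.951% of all genes. Oxct2a and 9530002B09Rik were dim, with medians of 4.81 and 4.60. Smap2, gene 10 on the left, ran the other way (r = -0.68).

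**Figure D4:**
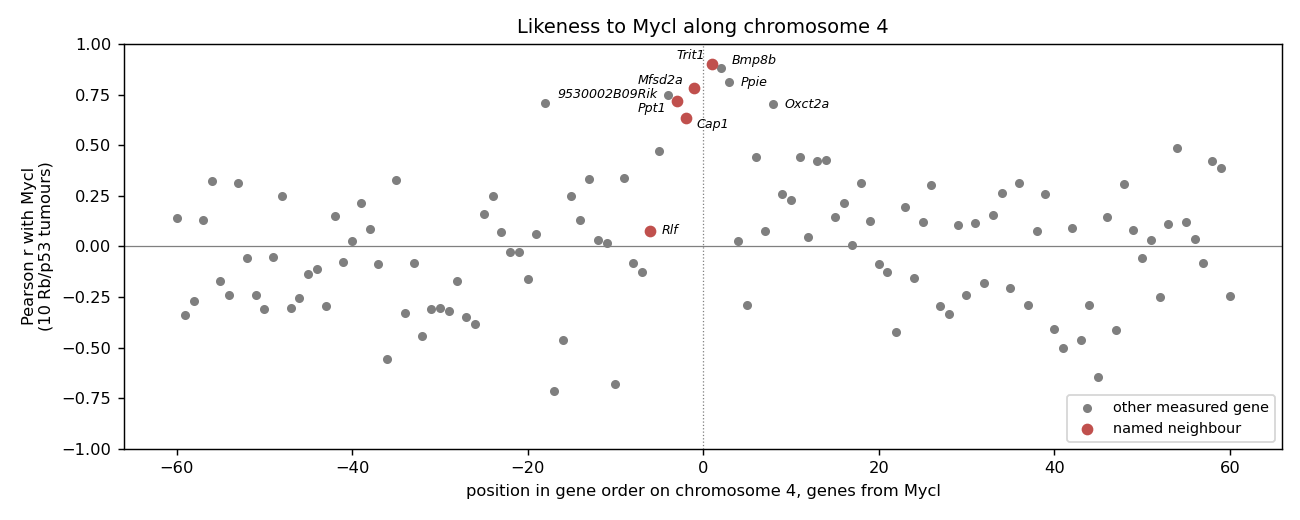
Pearson r with Mycl over the 10 Rb/p53 tumours (vertical) for the 60 measured genes on each side of Mycl in chromosome order (horizontal, in genes from Mycl), with the 5 named neighbours in red. Of the values above 0.7, most lie from 9530002B09Rik (0.75) to Ppie (0.81); Oxct2a (0.70) and Edn2 (0.71), 18 genes to the left and named after its value was seen, are the others, and Rlf lies at 0.08.

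The genes most like Mycl over the Rb/p53 tumours, beside Trit1, were St6galnac2, a sialyltransferase (r = 0.95), the ribosomal protein gene Rpl6 (0.94), the apolipoprotein gene Apoa5 (0.92), Pus1, a tRNA pseudouridine synthase (0.92), and Rtraf (0.90), none of them on chromosome 4. St6galnac2, Rpl6, Pus1 and Rtraf varied little, with SDs of 0.31, 0.14, 0.28 and 0.38, against 1.55 for Trit1. The lowest r belonged to Acr (-0.91), Gab3 (-0.90), Tbc1d5 (-0.88), Mns1 (-0.85), Xpa (-0.85) and Mzt2 (-0.85). The other MYC genes did not track Mycl: r was -0.21 for Myc and -0.47 for Mycn over the same tumours.

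Myc and Mycn were not called against normal lung. Myc read 7.07 to 8.61 in Rb/p53 tumours and 7.95, 8.16 and 8.04 in Rb/p53/p130 tumours, against 7.74 and 7.77 in normal lung (differences 0.03 ± 0.31 and 0.30 ± 0.36, limma adjusted p = 0.961 and 0.619). Mycn read 6.11 to 12.2 in Rb/p53 tumours and 7.76, 7.73 and 7.77 in Rb/p53/p130 tumours, against 6.19 and 6.21 in normal lung (differences 1.66 ± 1.10 and 1.55 ± 1.30, limma adjusted p = 0.285 and 0.440). Its top value, 12.19, was in tumour 7, where Mycl read 10.39. In tumour 4, Mycl read 13.16 and Mycn 6.11, the lowest of the 10.

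Genes that work with the MYC proteins were compared next, in lists described by their counts. Of 14 genes of the MYC network, 3 were called higher and 1 lower in Rb/p53 tumours than in normal lung, where 18.3% of all genes were higher and 20.5% lower. In Rb/p53/p130 tumours 2 were higher and 1 lower, where 15.3% and 15.6% of all genes were. Beside Mycl, the higher ones in Rb/p53 tumours were Mxd3, a Max partner expressed in dividing cells (2.30 ± 0.35, limma adjusted p = 0.000119), and Mlxipl, a glucose-sensing relative (1.17 ± 0.35, adjusted p = 0.0170), whose r with Mycl was 0.77. Of 20 growth genes known as MYC targets, 15 were higher and 1 lower in each tumour group, with a median difference of 1.25 in Rb/p53 tumours against -0.02 over all genes. Nop58, of ribosome assembly, was higher by 2.37 ± 0.34 and Srm, a polyamine enzyme, by 2.34 ± 0.61, whereas the cyclin gene Ccnd2 fell by 2.94 ± 0.31. Dividing-cell markers, 5 of 6 measured, averaged 11.5 to 12.4 in Rb/p53 tumours and 6.94 to 7.17 in normal lung, and their part in these counts was not tested. Over the 10 tumours the median r of the growth genes with Mycl was 0.31, against -0.04 for all genes, and 0 of the 20 reached 0.7.

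Each neighbour was also set beside genes of its own process, to be read against the same shares of all genes (18.3% higher and 20.5% lower for Rb/p53, 15.3% and 15.6% for Rb/p53/p130). Of 20 genes of tRNA modification, the process of Trit1, Rb/p53 tumours had 9 higher and 0 lower, and Rb/p53/p130 tumours 8 and 0. Qtrt1, of queuosine synthesis, was higher by 1.84 ± 0.21 (limma adjusted p = 8.07e-06) and the cytosine methyltransferase Nsun2 by 0.98 ± 0.21 (adjusted p = 0.00199). Pus1 was higher by 0.95 ± 0.21 (adjusted p = 0.00254), and Qtrt1 and Pus1 were the members of this list with r of at least 0.7 with Mycl (0.88 and 0.92). Of actin turnover genes, the process of Cap1, 14 of 15 were measured and 1 was higher (Twf2, 0.58 ± 0.21) and 1 lower (Gsn, which encodes the actin-severing gelsolin, -3.22 ± 0.57) in Rb/p53 tumours. Of lysosome genes, beside Ppt1, 16 of 19 were measured, with 3 higher and 4 lower, near the shares of all genes: the protease gene Ctsf was higher by 1.72 ± 0.30, and the membrane proteins Lamp2 and Lamp1 differed by -1.27 ± 0.22 and -0.78 ± 0.15. Of lipid uptake and binding genes, beside Mfsd2a, 10 of 11 were measured, with 0 higher and 3 lower, namely Cd36 (-3.75 ± 0.67), Abca3 (-2.01 ± 0.39) and Lpcat1 (-1.53 ± 0.29).

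These last 3 are known from capillaries and the alveolar epithelium. Alveolar type 2 markers, among which Abca3 is counted too, averaged 8.93 to 12.3 in Rb/p53 tumours and 13.2 and 13.5 in normal lung, and their part in the fall of the lipid genes was not tested. In Rb/p53/p130 tumours the counts higher and lower were 0 and 1 for actin turnover, 2 and 3 for the lysosome and 0 and 4 for lipid uptake. Between the tumour genotypes 0 genes of these 6 lists were called in limma.

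Of the 24 flanking genes, 5 were called higher and 0 lower in Rb/p53 tumours than in normal lung (Rlf, Rims3, Exo5, Smap2 and Rhbdl2), where 18.3% of all genes were higher and 20.5% lower. In Rb/p53/p130 tumours 3 were higher and 0 lower (Rims3, Exo5 and Smap2), against 15.3% and 15.6%. Rims3, a presynaptic protein gene 12 genes to the left of Mycl, exceeded normal lung by 4.27 ± 0.28 in Rb/p53 tumours and by 4.34 ± 0.32 in the triple-deleted ones (limma adjusted p = 3.61e-08 and 2.37e-07). It read 9.04 to 10.3 in Rb/p53 tumours and 10.20, 9.56 and 9.75 in Rb/p53/p130 tumours, against 5.52 and 5.49 in normal lung. All tumours were high for Rims3, and its r with Mycl was 0.03. Exo5, a DNA exonuclease gene, was higher in Rb/p53 tumours by 1.09 ± 0.24 (limma adjusted p = 0.00298), Smap2, which acts on the vesicle GTPase Arf, by 0.72 ± 0.22 (adjusted p = 0.0211) and Rhbdl2, a rhomboid protease gene, by 1.90 ± 0.50 (adjusted p = 0.00863).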

How the data were processed

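Trizol-isolated RNA of 13 tumours and 2 normal lungs was amplified in 2 rounds and hybridised to Affymetrix mouse arrays, as the labels' protocols state. Values deposited by the authors are log2 expression levels, 1 per probe set, made with RMA, per the submitters' processing notes. No batch or genome build is given in the sources used here. Of 45101 probe sets, 64 controls were left out; 34945 of the rest had 1 symbol, 932 several and 9160 none, and 34741 matched RefSeq (GRCm38.p6), which gave names and gene order. A gene was read from its probe set of highest mean.

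Differences were fitted over 45037 probe sets with limma 3.58.1 (R 4.3.3; lmFit, eBayes, 3 groups in 1 fit), adjusted by Benjamini-Hochberg and called at 0.05. Shares of all genes count each gene's brightest probe set. Correlations used 100000 permutations, or all of them for fewer than 10 tumours (Python 3.11.15, scipy 1.17.1). Scripts were tested on simulated data. The rule on separate clusters of tumours (a gap over 50% of the range) was written for Mycl; applied to the neighbours it held for Trit1, whose r was therefore taken within the lower cluster. The genes named were the members, 12 measured genes on each side of Mycl, Myc, Mycn, the 6 highest and 6 lowest r with Mycl, and, per list, at most 3 called genes of largest change. The members and lists were chosen with earlier results of these data known. Alternatives changed normalisation, filters, the fit, probe sets, arrays and a replicate block.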

Additional observations from a re-analysis of the deposited data

Results flagged for a closer look

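Of 38 sets of 10 Rb/p53 values examined (the probe sets of the members, Myc, Mycn and the flanking genes), 4 held a tumour far from the other 9, with a gap to its neighbour above 0.466 of the range; chance alone gives about 1 in 20. Mycn stood out in tumour 7 on its brightest probe set (12.19, next 8.90) and on another (10.19, lowest 5.79), where Mycl read 10.39. Its remaining probe set did not show this: it read 7.00 in tumour 7, within 6.61 to 7.04 over the Rb/p53 tumours. Hpcal4 stood out in tumour 8 (8.33, next 6.32 in tumour 4, lowest 4.04), and so did Heyl (9.49, next 7.36). Hpcal4 and Heyl lie side by side on chromosome 4, at genes 4 and 5 to the right of Mycl, and the values in normal lung were 5.87 and 6.65 for Hpcal4 and 7.05 and 7.18 for Heyl.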

How the results depend on the processing

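The number of members called in Rb/p53 tumours against normal lung, 2 as reported, was 1 with arrays centred on their medians (Mycl), with the compared groups alone (Mycl) and with the mean of a gene's probe sets (Rlf), and 0 with the Gapdh difference as a covariate or against a change of at least 1. Leaving out 1 array gave 0 to 2. In Rb/p53/p130 tumours, 1 as reported, it was 2 with the compared groups alone (Mycl and Rlf), and 0 with the mean of probe sets, the Gapdh covariate or a change of at least 1; leaving out 1 array gave 0 to 2. Between genotypes it was 0 throughout. With the covariate Mycl differed from normal lung by 4.37 (adjusted p = 0.267) and 4.81 (adjusted p = 0.279) in the 2 tumour groups; that covariate separates lungs from tumours. Mycl differed by 2.15 to 4.37 and 2.73 to 4.81 over the alternatives, and by 2.48 to 2.92 and 2.69 to 3.48 with 1 array left out.

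Reversed differences from normal lung were small or uncalled: Ppt1 in Rb/p53 tumours (-0.027 by quantiles, -0.039 centred, -1.29 with the covariate), and Cap1 with the covariate (-0.71 and, in Rb/p53/p130 tumours, -1.20). Between genotypes Rlf was 0.010 when centred. With 1 array left out, Rb/p53 tumours differed by -0.21 to 0.24 for Ppt1 and -0.97 to 0.59 for Mfsd2a, Rb/p53/p130 tumours by -0.45 to 0.41 for Cap1 and -1.30 to 0.26 for Mfsd2a, and the genotypes by -0.016 to 0.78 for Mycl, -0.73 to 0.12 for Trit1 and -0.089 to 0.061 for Rlf.

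Of the 5 relations with Mycl, 1 passed as reported, 4 with 13 tumours centred by genotype, 3 with the mean of probe sets, 0 without the 2 farthest tumours, 0 within the 7 tumours and 0 to 3 with 1 tumour left out. Reversed r were -0.12 for Rlf without the farthest, and -0.53 for Cap1, -0.58 for Ppt1 and -0.15 for Rlf within the 7; Rlf ran from -0.21 to 0.48 with 1 tumour left out. The values within the 7, and r = 0.90 for Trit1 over all 10, were chosen after seeing the data. The cause of these shifts was not tested.

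Only numbers 1 and 2 are shared by Rb/p53 tumours and lungs, and nothing ties them to one animal. With the replicate block 1 member was called (Mycl, 2.85, adjusted p = 0.0257), and Rlf was not (0.63, adjusted p = 0.134). With 2 lungs, both calls against lung depend on each of them.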

Other observations

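Oxct2a, which lies 8 genes to the right of Mycl and encodes a ketone body enzyme of the testis, read 5.32, 5.12 and 5.67 in tumours 2, 4 and 9 and 4.37 to 4.87 in the other 7 Rb/p53 tumours, against 4.41 and 4.22 in normal lung, close to the level of dim probe sets. Bmp8a, gene 7 on the right, lay between 4.74 and 5.53 in Rb/p53 tumours and at 5.12 and 5.04 in normal lung. Macf1 was raised in tumours 4 and 8 (12.50 and 12.20) relative to the other Rb/p53 tumours, whose levels ran from 9.96 to 11.3, and normal lung read 12.19 and 12.20. Ndufs5, a subunit of respiratory complex I, and Akirin1 were highest in tumours 2 and 4, with 12.72 and 12.70 for Ndufs5 and 13.15 and 13.33 for Akirin1, and read 10.93 and 11.09 in tumour 9.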
